A study of Mus musculus with 14 samples.

Results

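The transcripts described here are those of 39 genes of fatty acid oxidation, chosen as a named list of mitochondrial and peroxisomal enzymes, carriers and PPAR alpha target genes. The list does not use measured values in its rule, but it was drawn up with earlier results of these data known. They are 39 of the 55427 genes of the deposited liver table, and each of the 39 was among the 12110 genes expressed highly enough to be tested. They fall into 10 roles, from the carnitine shuttle that brings fatty acids into mitochondria to the thioesterases that release them from coenzyme A.

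Bulk RNA-seq was performed on livers of male mice on the C57B6 background, for which an age of 8 to 10 weeks is given, after 14 weeks of feeding. Since that age is below the time on diet, it cannot be the age at which livers were taken. The groups were HiAD + PM (2 libraries, R18 and R19), HiAD in mice labelled RageHepKO (3 libraries, RA19, RA20 and RA21), HiAD (3 libraries, B1, B2 and B3), FFD (3 libraries, R28, R31 and R32) and chow (3 libraries, R1, R2 and R3). The FFD is a fast-food diet given with fructose in the drinking water, and the HiAD is the same diet rich in advanced glycation end products (AGEs) after cooking. Pyridoxamine (PM), an inhibitor of AGE formation, was injected into the peritoneum daily at 60 mg per kg from week 5 of the HiAD. The HiAD group received vehicle, as the study describes, and vehicle is not mentioned for the mice labelled RageHepKO. Every group carried the floxed alleles of RAGE, the receptor for AGEs encoded by Ager. The mice labelled RageHepKO also carried Albumin-cre, which acts in hepatocytes, so that the other cells of the liver keep the gene. The series speaks of 3 mice in each group, while 2 libraries are listed for HiAD + PM.

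Fatty acids are activated to acyl-CoA, carried across the mitochondrial membranes on carnitine, and shortened in rounds of dehydrogenation, hydration, oxidation and thiolysis. Peroxisomes start the breakdown of very long and branched chains, and electrons from the acyl-CoA dehydrogenases pass through the electron transfer flavoprotein to the respiratory chain. In the mouse liver many of these genes are targets of PPAR alpha, a nuclear receptor that is activated by fatty acids and their derivatives and binds DNA together with RXR. Fasting, fat-rich diets and PPAR alpha agonists are known to raise them.

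PPAR alpha and RXR bind direct repeats of the half-site AGGTCA with 1 base between them. The 250 bases before the start of 6 members are shown because they include 4 neighbouring thioesterase genes that varied widely among these livers, and Cpt1a and Pdk4, each of which passed the test in at least 2 comparisons. They are from RefSeq on GRCm38.p6, each read on the strand of its gene, with the half-site AGGTCA or its reverse complement TGACCT in capitals. The windows are chr12:83987611-83987860 for Acot2, chr12:84009252-84009501 for Acot1, chr12:84038129-84038378 for Acot4, chr12:84051894-84052143 for Acot3 and chr19:3323051-3323300 for Cpt1a, these on the plus strand, and chr6:5496279-5496528 for Pdk4 on the minus strand.
Acot2: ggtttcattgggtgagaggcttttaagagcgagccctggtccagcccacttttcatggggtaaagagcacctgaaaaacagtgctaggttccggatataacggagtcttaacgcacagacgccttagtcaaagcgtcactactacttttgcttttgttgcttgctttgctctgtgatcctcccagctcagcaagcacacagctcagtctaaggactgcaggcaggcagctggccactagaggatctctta
Acot1: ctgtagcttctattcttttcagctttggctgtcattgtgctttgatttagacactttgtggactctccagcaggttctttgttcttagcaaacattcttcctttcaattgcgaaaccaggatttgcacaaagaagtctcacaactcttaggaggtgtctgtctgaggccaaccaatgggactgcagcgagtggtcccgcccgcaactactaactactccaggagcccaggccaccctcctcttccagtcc
Acot4: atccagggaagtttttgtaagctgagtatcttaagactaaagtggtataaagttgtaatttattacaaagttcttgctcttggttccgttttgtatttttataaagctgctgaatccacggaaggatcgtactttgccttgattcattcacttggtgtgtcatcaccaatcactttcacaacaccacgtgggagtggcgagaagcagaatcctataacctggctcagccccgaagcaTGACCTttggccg
Acot3: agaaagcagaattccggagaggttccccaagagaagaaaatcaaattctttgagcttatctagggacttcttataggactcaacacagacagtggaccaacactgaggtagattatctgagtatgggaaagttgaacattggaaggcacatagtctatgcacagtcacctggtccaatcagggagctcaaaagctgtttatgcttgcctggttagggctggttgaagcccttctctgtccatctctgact
Cpt1a: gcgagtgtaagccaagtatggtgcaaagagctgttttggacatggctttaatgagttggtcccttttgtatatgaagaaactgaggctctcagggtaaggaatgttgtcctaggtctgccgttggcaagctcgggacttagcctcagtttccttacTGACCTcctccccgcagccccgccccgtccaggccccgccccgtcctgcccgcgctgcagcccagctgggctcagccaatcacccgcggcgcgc
Pdk4: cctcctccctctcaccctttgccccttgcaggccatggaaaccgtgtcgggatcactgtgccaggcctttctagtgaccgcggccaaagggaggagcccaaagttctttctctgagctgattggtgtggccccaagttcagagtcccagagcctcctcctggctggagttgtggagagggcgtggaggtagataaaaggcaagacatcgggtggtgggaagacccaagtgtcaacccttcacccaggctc

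Among the 6 windows shown, Acot4 held 1 half-site, 13 bases before its start, and Cpt1a held 1, 94 bases before its start, both on the strand opposite to the gene. These starts are those of RefSeq. In the GENCODE annotation used for gene positions Cpt1a begins at base 3322334, so that its window lies within the GENCODE gene, and Acot1 and Pdk4 also start at other bases in GENCODE. Promoter sequence was at hand for 34 of the 39 members. The half-site on either strand was in 5 of these (14.7%), the windows of Cpt1a, Acadm, Acadvl, Acot4 and Acot12, against 15.8% of the windows of 27025 genes. The direct repeat AGGTCANAGGTCA was in 0 of the 34 windows, against 0.0407% of those of 27025 genes. A looser form, AGGNCANAGGNCA, was in 0 of 34, against 0.400%. Matches on both strands were counted for each, and every match of the strict repeat also matches the half-site. These letters describe 250 bases only, and enhancers within or far from the genes were not searched.

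Values are FPKM, that is fragments per kilobase of exon relative to the total of the library, rescaled between libraries (scaled FPKM). Over all entries the deposited values summed to 393274 to 601165 per library, read depth is unknown, and 11 hepatocyte markers summed to 19619.6 to 38839.6 scaled FPKM, with pancreas markers summing to at most 3.40 and muscle markers to at most 0.915. Adipocyte markers summed to 0 to 65.0 in the libraries labelled RageHepKO and to at most 0.336 in the other groups. Ager went against the labels: it was at 2.49 to 2.75 with PM, at 0.198 to 1.90 in the libraries labelled RageHepKO, at 0.0811 to 0.184 in HiAD, at 2.47 to 2.78 in FFD and at 0.801 to 2.15 in chow livers, so that directions drawn from that label rest on the label alone. Mitochondrially encoded genes held 24.3% to 53.1% of the FPKM total in the libraries labelled RageHepKO, against 14.1% to 22.1% in HiAD livers. RA19 stood apart among the libraries labelled RageHepKO. Its mitochondrially encoded share was 53.1%, against 36.9% and 24.3% in RA20 and RA21, and its Ager 0.198, against 1.90 and 1.83. RA19 was the lowest of 14 libraries for 9 of the 39 members. HiAD livers also stood apart in other lists: of 14 genes biased to males in mouse liver, 12 were higher with PM than in HiAD livers, and 11 were lower in HiAD livers than in chow livers. Chow R2 stood apart among chow livers, with Igfbp1, an insulin-repressed gene, at 4537 scaled FPKM, against 16.2 and 16.7 in chow R1 and R3. It was the lowest of 14 libraries for 14 of the 39 members, and member calls that change without it are given beside the result.

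**Figure D1:**
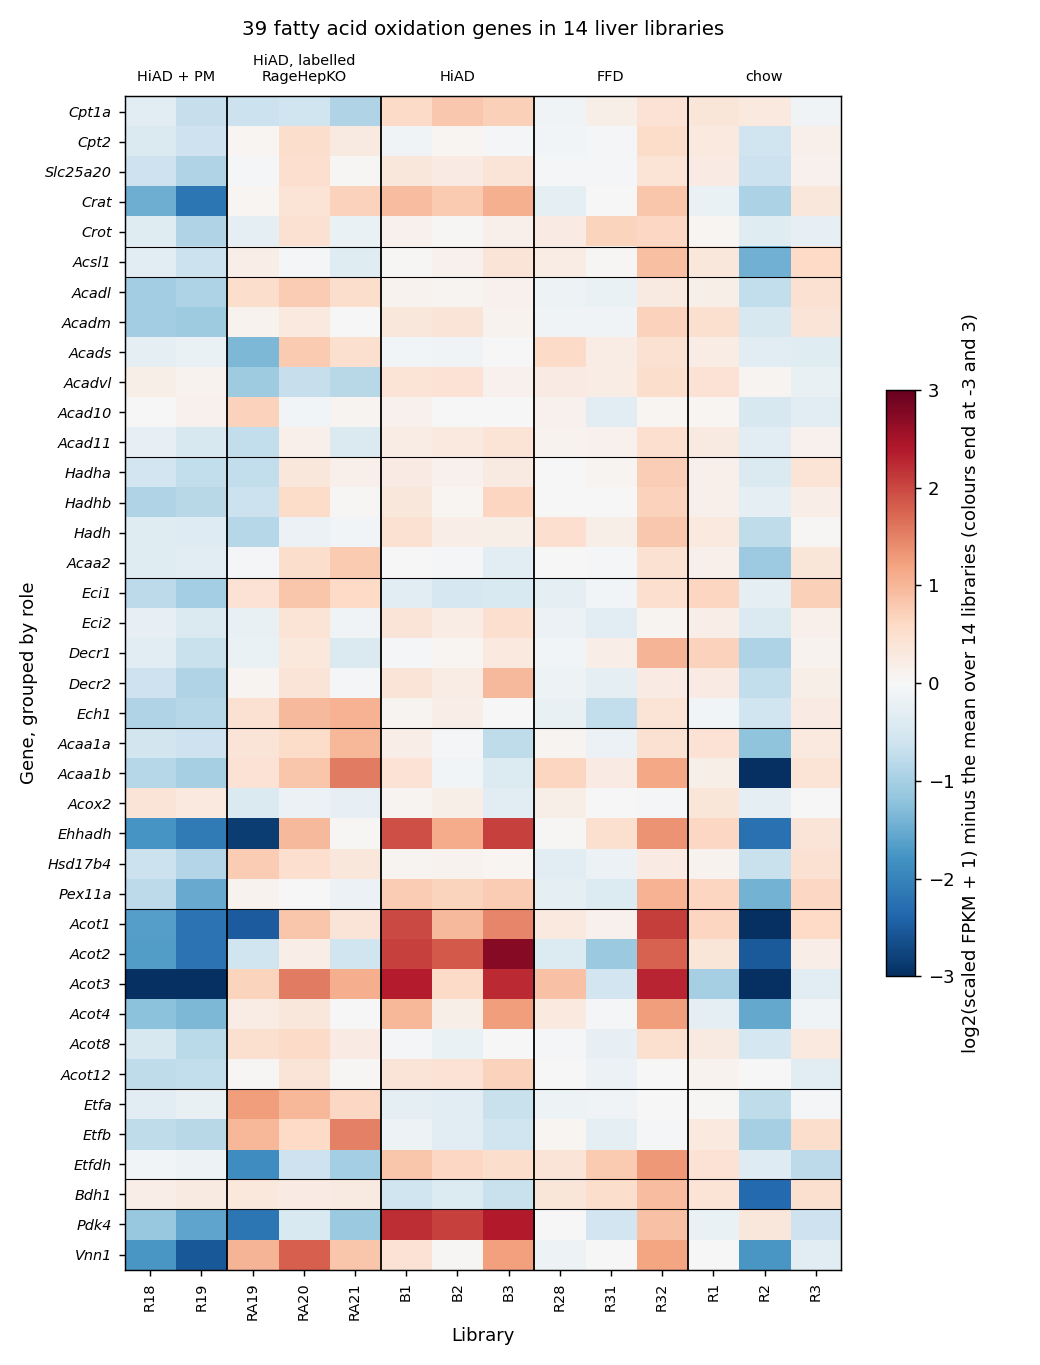
Each cell is the log2(scaled FPKM + 1) of 1 member (rows, by role) in 1 library (columns, by group) minus that member's mean over 14 libraries, with blue below and red above the mean. The HiAD + PM libraries R18 and R19 and chow R2 are mostly blue, with median deviations of -0.61, -0.83 and -0.67 over the 39 members.

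The 39 members differed widely in level and in spread. By mean over 14 libraries the highest was Ehhadh, the peroxisomal bifunctional enzyme, at 984 scaled FPKM, followed by Acaa1b, a peroxisomal thiolase, at 890.0, and the lowest was Acad10, an acyl-CoA dehydrogenase, at 1.51. On the log2(scaled FPKM + 1) scale the range over 14 libraries ran from 0.83 for Acox2, an oxidase of branched chains and bile acid precursors, to 5.75 for Acot3. The 5 members of widest range were the thioesterases Acot3, Acot2 and Acot1 with Acaa1b and Ehhadh, and 4 of these 5 were lowest in chow R2. The median deviation of the 39 members from their own means was -0.61 and -0.83 in the HiAD + PM libraries R18 and R19, 0.06, 0.41 and 0.03 in the libraries labelled RageHepKO, and 0.33, 0.18 and 0.27 in HiAD B1, B2 and B3. It was 0.00, -0.04 and 0.55 in FFD R28, R31 and R32 and 0.25, -0.67 and 0.18 in chow R1, R2 and R3. The same median over the 12110 tested genes lay between -0.06 and 0.01 in each library. FFD R32 was the highest library for 13 members and HiAD B3 for 8.

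The comparison of HiAD + PM with HiAD asks which of these transcripts differ when AGE formation is inhibited on the same diet. Of the 39 members 12 passed in limma at an adjusted p under 0.05, and each of these 12 was lower with PM. In RNA of whole livers fewer cells of a type and less RNA per cell cannot be told apart. The 12 are the thioesterases Acot2, Acot3, Acot4 and Acot12, the carnitine shuttle genes Cpt1a, Crat and Slc25a20, and Acadm, Hadhb, Decr2, Pdk4 and Vnn1. They are 30.8% of the members, against 3.14% of the tested genes that were lower, and 0 members were higher (0 also at an unadjusted p under 0.05 in limma, where 22 were lower), against 3.31% of tested genes. The median log2 fold change over the 39 members was -0.84, against 0.01 over the tested genes, and 35 of the 39 were below 0. For 32 members (82.1%) both HiAD + PM libraries lay below the 3 HiAD libraries, against 24% of the tested genes, and for 2 members (5.13%) they lay above, against 26%. In 7 members (17.9%) the HiAD + PM libraries were the 2 lowest of 14, against 3.10% of tested genes: Crat, Acot12, Acadl, Acadm, Hadhb, Ech1 and Eci1. The count of 12 fell to 5 without HiAD B3 and to 7 without B1. It was 17 without chow R2, whose spread enters the shared error, with Acadl, Acot1, Ehhadh, Hsd17b4 and Pex11a added and with Bdh1 higher. It was smallest without R19 or R18, as was the count over tested genes, but these fits leave 1 library with PM. Over tested genes the 380 lower were 184 without HiAD B3, 232 without B1 and 493 without chow R2. The signs of the 35 members below 0 held under each of the 29 other settings and left-out libraries. Filters, thresholds, fits of fewer groups and left-out libraries of other groups cannot move this fold change, so they do not bear on the sign.

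**Figure D2:**
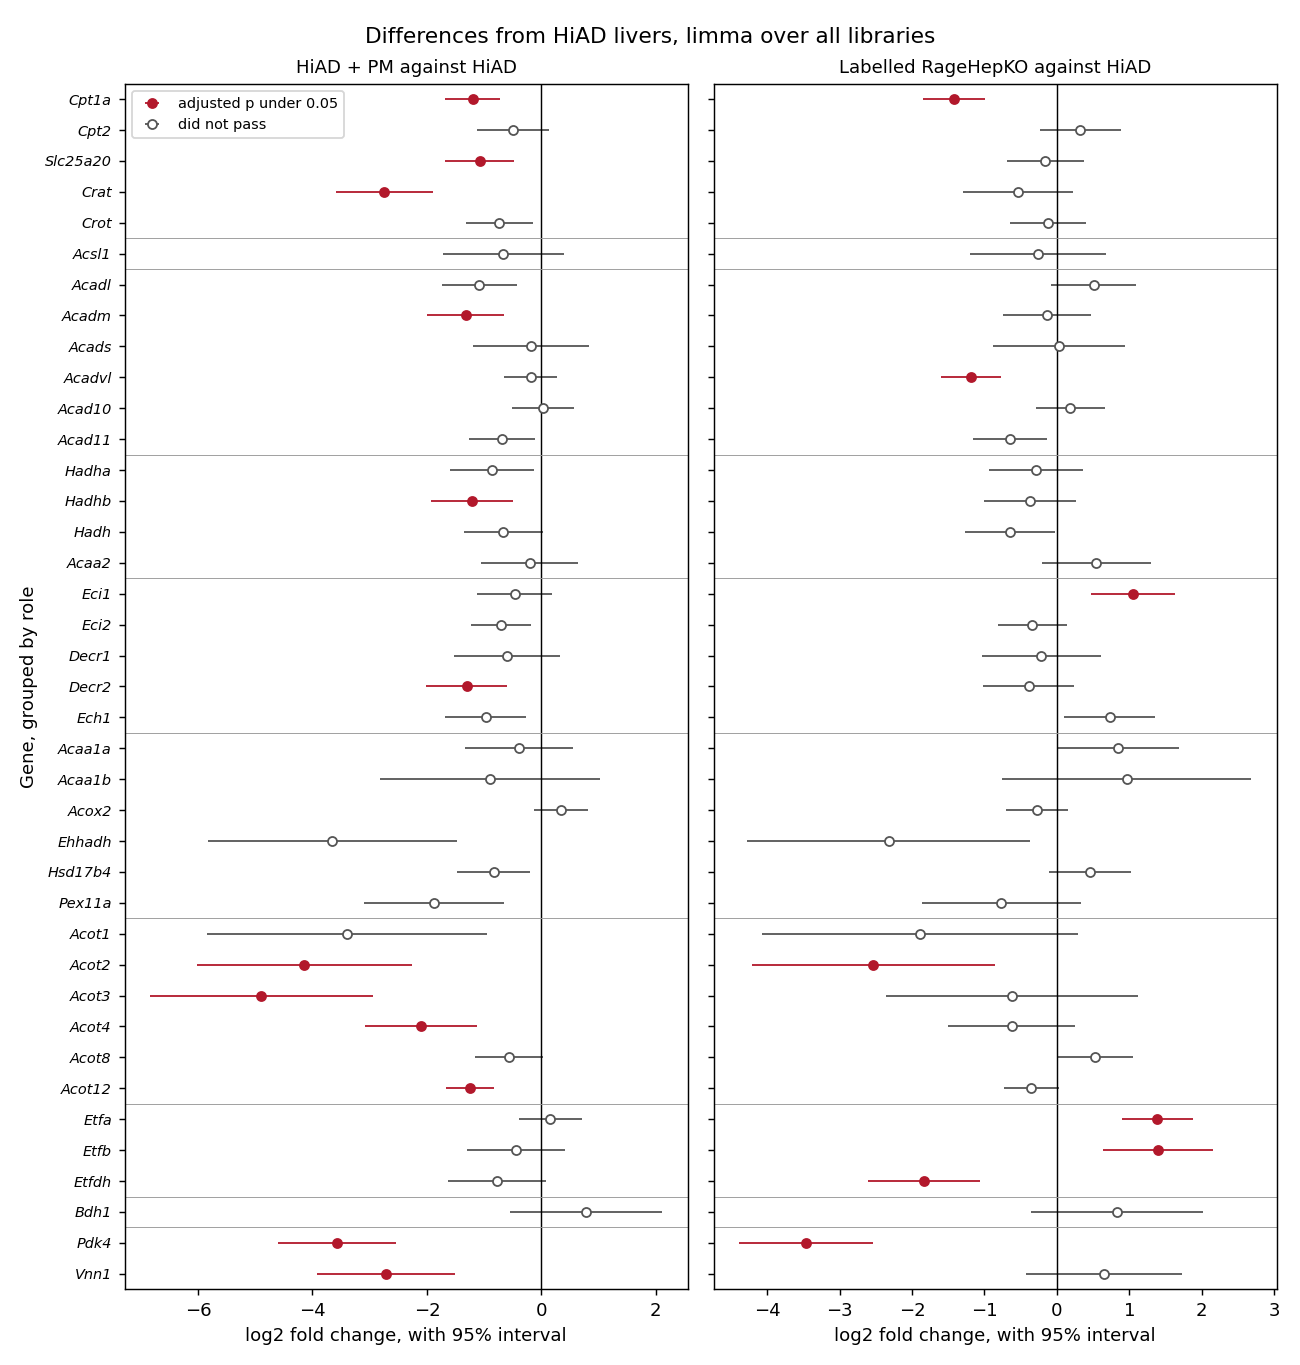
Points are log2 fold changes of the 39 members (rows, by role) with 95% intervals, for HiAD + PM against HiAD on the left and for the libraries labelled RageHepKO against HiAD on the right. Filled red points passed at an adjusted p under 0.05: 12 on the left, each below 0, and 8 on the right, 5 below 0 and 3 above.

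Few members passed between HiAD livers and the livers on the other diets. Against FFD, 1 member was higher, Pdk4 (2.56% of the members, against 1.66% of tested genes), and 0 were lower (0 also at an unadjusted p under 0.05 in limma, where 5 were higher), against 1.45%. The median log2 fold change was 0.09, against 0.02 over tested genes. The HiAD libraries lay above the FFD libraries in 5 members and below them in 5 (12.8% each), against 16.7% and 14% of tested genes. Against chow, 2 members were higher, Pdk4 and Acot3 (5.13%, against 2.81% of tested genes), and 0 were lower (1 at an unadjusted p under 0.05 in limma, where 11 were higher), against 1.82%. The median was 0.30, against -0.02 over tested genes, and 13 members (33.3%) lay above chow without overlap, against 13.2%, and 1 (2.56%) below, against 12.4%. Against chow R1 and R3 alone, 13 lay above (33.3%), against 23.4% of tested genes, and 11 below (28.2%), against 23.0%. Without chow R2 the median was 0.11, Pdk4 alone was higher, and Bdh1 and Eci1 were lower. In that fit 507 of 12011 tested genes were higher and 377 lower. Without FFD R32 4 members were higher, against 278 of 12081 tested genes. FFD livers had 0 members past the test against chow (5 higher and 0 lower at an unadjusted p under 0.05 in limma), against 0.00826% of tested genes higher and 0.0578% lower. FFD libraries lay above the chow libraries in 2 members (5.13%), against 8.15% of tested genes, and below them in 0, against 9.79%. Against chow R1 and R3 alone these counts were 2 and 3, against 17.8% and 19.3% of tested genes. The median was 0.23, and it became -1.62e-05 without chow R2.

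**Figure D3:**
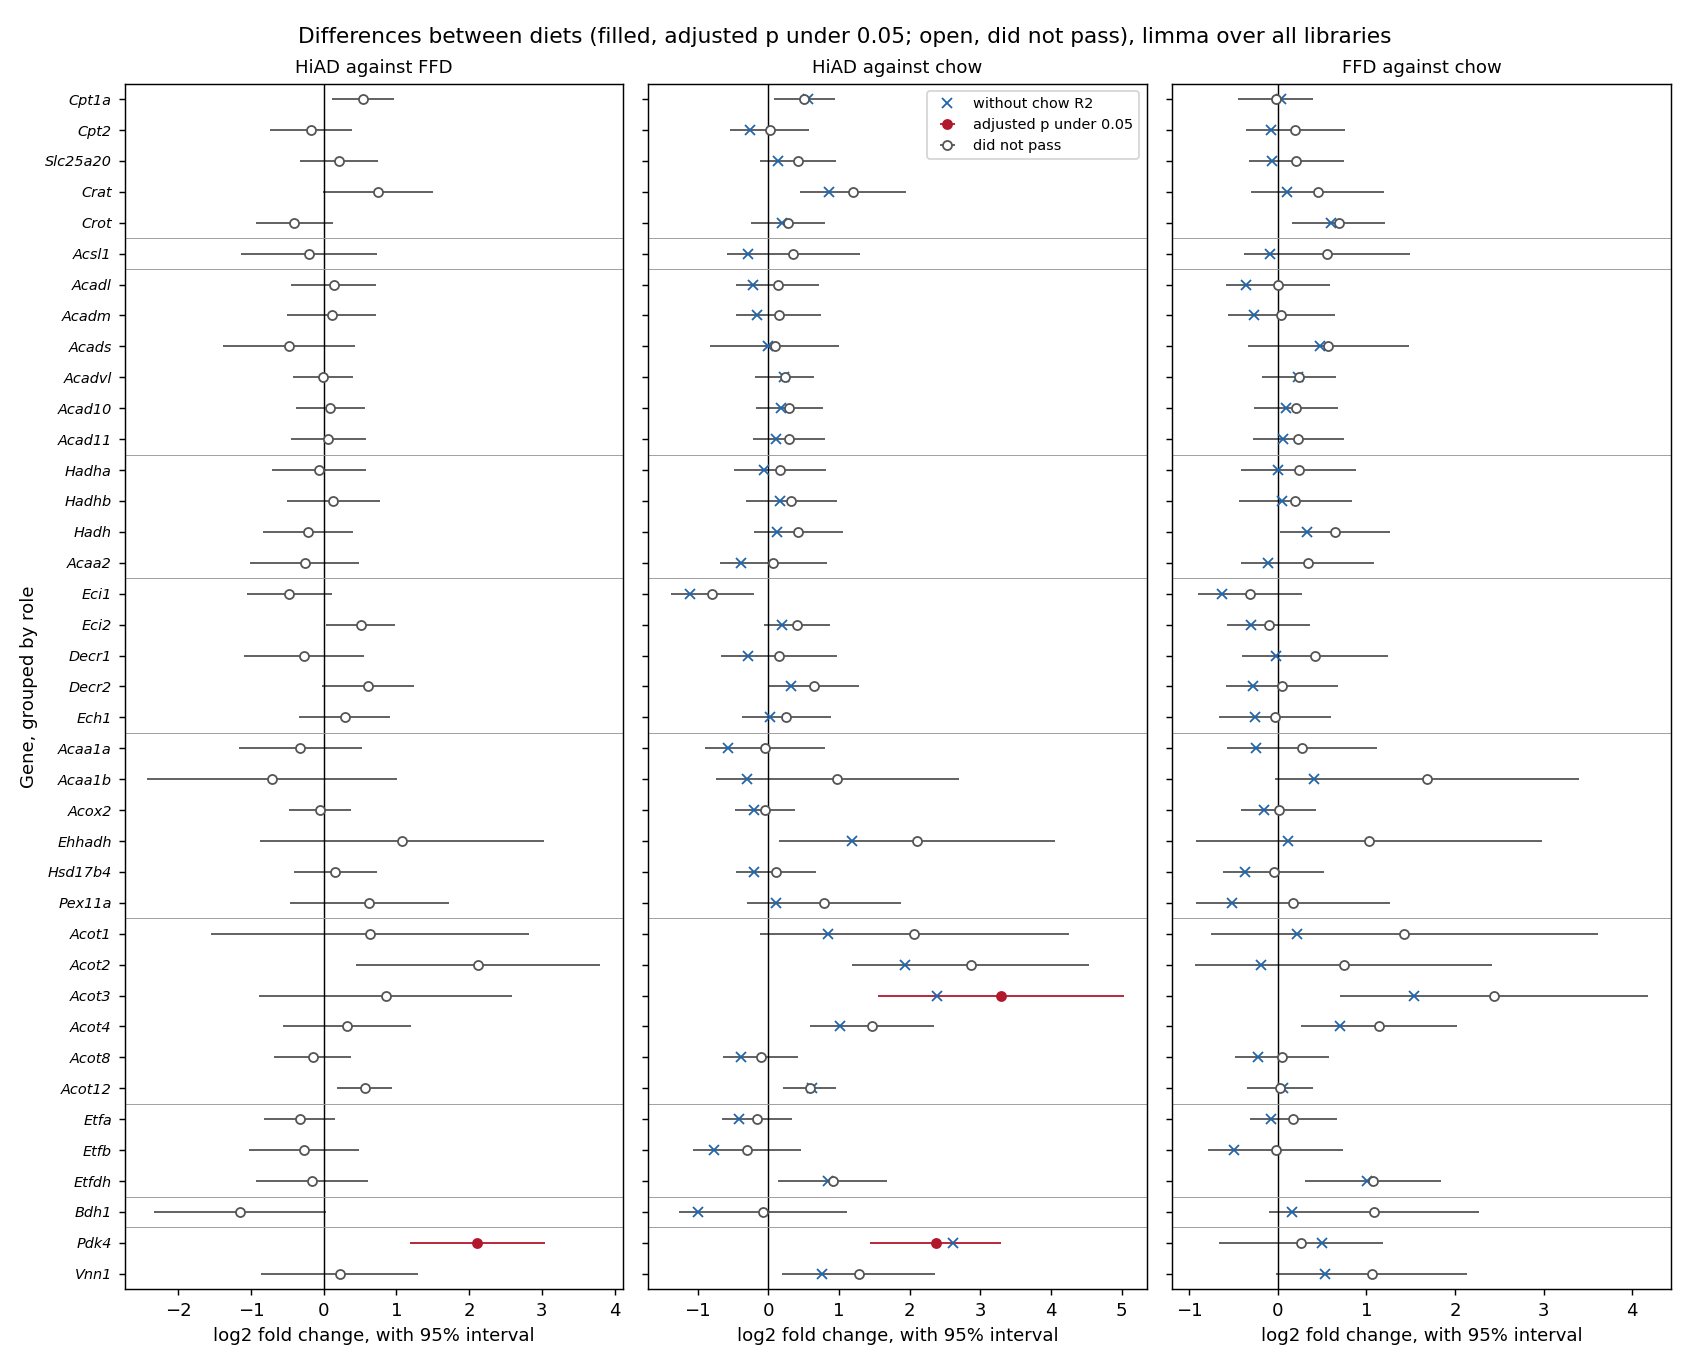
Points are log2 fold changes of the 39 members (rows, by role) with 95% intervals, for HiAD against FFD, HiAD against chow and FFD against chow. Filled red points passed (Pdk4 in the left panel, Pdk4 and Acot3 in the middle one), and blue crosses are the values without chow R2, which lie at or to the left of most open points.

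The libraries labelled RageHepKO, set against HiAD livers, had 3 members higher (7.69%, against 15.7% of tested genes) and 5 lower (12.8%, against 17.7%). The higher ones were Etfa, Etfb and Eci1, and the lower ones Pdk4, Cpt1a, Acadvl, Etfdh and Acot2. The 3 libraries lay above the HiAD libraries in 10 members (25.6%), against 20.3% of tested genes, and below them in 12 (30.8%), against 23.7%. The median was -0.26, against -0.000665 over tested genes. On FPKM as deposited, which places the median of tested genes at -0.26, 1 was higher and 9 were lower. Of 12081 tested genes 952 were higher and 3371 lower on those values. The share of mitochondrially encoded genes given above moves with this comparison. With these genes left out of scaling and testing, 1914 of 12077 tested genes were higher and 2107 lower. No member call of this comparison was lost in that fit, and the part of this share beyond scaling was not tested. Marker sums moved with it too: 19.02 to 36.8 scaled FPKM in the libraries labelled RageHepKO, against 92.9 to 148 in HiAD livers, for 9 cholangiocyte markers, 40.4 to 50.8, against 69.5 to 95.6, for 12 stellate cell markers, and 0 to 65.0, against 0, for adipocyte markers, of which Adipoq, Lep and Retn were at 0 in these libraries. The sums were 56.9 to 66.7, against 37.1 to 45.8, for 10 endothelial markers, 116 to 284, against 53.1 to 67.0, for 8 Kupffer cell markers, and 3.51 to 12.9, against 1.62 to 2.62, for 9 lymphoid markers. Among tested markers 4 of 5 for cholangiocytes and 5 of 11 for stellate cells were lower, and 0 higher (limma). For endothelial, Kupffer and lymphoid cells 3 of 8, 4 of 8 and 1 of 3 were higher, and 0 lower. Of 12 genes raised by fasting, 6 were lower in the libraries labelled RageHepKO than in HiAD livers and 0 higher (0 also at an unadjusted p under 0.05 in limma), with a median of -1.50, and 1 of the 6 is the member Cpt1a. Of 14 tested clock genes 3 were higher and 1 lower. Among 11 hepatocyte markers 5 passed below HiAD livers, Hnf4a, Apob, Cps1, Tat and Alb, and 1 above, Ttr (limma). The median over these 11 was -0.58. Their sums overlapped, at 29554.1 to 38839.6 scaled FPKM in the libraries labelled RageHepKO, against 27620.1 to 30479.1 in HiAD livers. The part of these differences was not tested. Without chow R2 in the shared error 8 members were higher, with Acadl, Bdh1, Ech1, Acaa1b and Acaa1a added. In that fit 8 members were lower, with Ehhadh, Hadh and Acad11 added. Of 12011 tested genes 2091 were higher and 2379 lower there. Without RA19 5 members were higher, against 1636 of 11811 tested genes. Since HiAD + PM, the libraries labelled RageHepKO and both diets are set against the same 3 HiAD libraries, the values of these comparisons are given side by side and not correlated.

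The carnitine shuttle begins with Cpt1a, the outer-membrane transferase at which entry of long chains into mitochondria is controlled (chromosome 19, bases 3322334 to 3385733 of GRCm38). It was at 14.3 and 10.9 scaled FPKM with PM, at 11.1, 11.7 and 9.23 in the libraries labelled RageHepKO, at 27.2, 32.6 and 30.5 in HiAD, at 16.7, 20.6 and 24.7 in FFD and at 23.7, 22.5 and 16.7 in chow livers. The 3 HiAD libraries were the highest of the 14, and the HiAD + PM and RageHepKO-labelled libraries lay below every FFD and chow library. The log2 fold change against HiAD was -1.20 ± 0.22 (SE), adjusted p = 0.00725 with PM and -1.42 ± 0.20 (SE), adjusted p = 0.000569 in the libraries labelled RageHepKO, both in limma. The call with PM was lost without R19, at an adjusted p of 0.14 in limma. Against FFD the change in HiAD livers was 0.54 ± 0.20 (SE) and missed the threshold (adjusted p = 0.181 in limma).

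Crat, which moves acetyl groups between coenzyme A and carnitine, had the widest range of the shuttle. It was at 5.93 and 3.28 scaled FPKM with PM, at 19.1, 24.6 and 29.99 in the libraries labelled RageHepKO and at 35.4, 32.2 and 39.2 in HiAD livers, and at 14.8, 17.997 and 33.04 in FFD and 15.6, 8.91 and 23.4 in chow livers. The HiAD + PM libraries were the 2 lowest of 14, and FFD R32 reached the HiAD range. The log2 fold change with PM against HiAD was -2.74 ± 0.39 (SE), adjusted p = 0.00149 in limma, and no alternative ended the call. Cpt2, the transferase of the inner membrane, was at 97.9 and 85.5 with PM, at 138, 193 and 161 in the libraries labelled RageHepKO, at 123, 137 and 130.2 in HiAD, at 126, 129 and 195 in FFD and at 163, 87.5 and 147 in chow livers. Its change with PM, -0.50 ± 0.29 (SE), did not pass (95% interval -1.13 to 0.13). The translocase Slc25a20 passed with PM at -1.08 ± 0.28 (SE), adjusted p = 0.0378 in limma, a call lost without any one HiAD or HiAD + PM library or FFD R28 or R31, with no filter and on FPKM as deposited, and Crot, the octanoyltransferase of peroxisomes, was at -0.73 ± 0.27 (SE) and did not pass.

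Acsl1, the main long-chain acyl-CoA synthetase of the liver, was at 78.5 and 62.05 scaled FPKM with PM, at 113, 93.9 and 75.2 in the libraries labelled RageHepKO, at 100.1, 107 and 128 in HiAD, at 114, 100.4 and 183 in FFD and at 123, 35.3 and 149 in chow livers. Both HiAD + PM libraries were below the 3 HiAD libraries, and chow R2 was the lowest of the 14. No comparison of Acsl1 passed, and the change with PM was -0.66 ± 0.48 (SE) (adjusted p = 0.505 in limma).

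The acyl-CoA dehydrogenases carry out the first oxidation of each round, each for a range of chain lengths, and 1 of 6 passed with PM. Acadm, for medium chains (chromosome 3, bases 153922357 to 153944632), was at 51.3 and 50.8 scaled FPKM with PM, at 114, 130.3 and 108 in the libraries labelled RageHepKO and at 134, 139.6 and 115 in HiAD livers, and at 99.1, 99.7 and 174 in FFD and 149, 76.02 and 139.984 in chow livers. Its 2 values with PM were close to each other and below every other library. The log2 fold change against HiAD was -1.32 ± 0.31 (SE), adjusted p = 0.0255 in limma, and the call was lost without any one HiAD or HiAD + PM library, with no filter and on FPKM as deposited. Acadl, for long chains, was at 49.6 and 53.3 with PM, at 149, 176 and 147 in the libraries labelled RageHepKO, at 111, 108 and 112 in HiAD, at 91.3, 88.4 and 124 in FFD and at 116, 60.97 and 142 in chow livers. Its HiAD + PM libraries were also the 2 lowest, at -1.08 ± 0.30 (SE), which just missed the threshold (adjusted p = 0.0526 in limma) and passed without chow R2 (-1.08 ± 0.20 (SE), adjusted p = 0.00596 in limma). The libraries labelled RageHepKO lay above the HiAD libraries in Acadl, at 0.51 ± 0.27 (SE), adjusted p = 0.167 with all libraries and 0.51 ± 0.18 (SE), adjusted p = 0.0418 without chow R2 (limma).

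Acadvl, the dehydrogenase for very long chains, had its lowest values in the libraries labelled RageHepKO. These were 4.20, 5.72 and 5.06 scaled FPKM, against 13.4, 13.7 and 10.9 in HiAD livers, with 11.3 and 10.7 in HiAD + PM, 11.9, 11.7 and 14.6 in FFD and 13.7, 10.4 and 8.26 in chow livers. The 3 libraries labelled RageHepKO were below the other 11, with a log2 fold change of -1.19 ± 0.19 (SE), adjusted p = 0.00117 in limma, and no alternative ended the call. In the annotation 42.9% of the exon bases of Acadvl lie under exons of Dvl2 on the other strand, and whether reads were counted by strand is not given, so that its level is uncertain. The short-chain gene Acads and the genes Acad10 and Acad11, which act on longer and less common acyl-CoA species, passed in 0 of the 5 comparisons in limma, while without chow R2 Acad11 was lower in the libraries labelled RageHepKO (-0.65 ± 0.22 (SE), adjusted p = 0.0348). For these 3 the changes with PM were -0.18, 0.03 and -0.68, and Acad10 was at or below 2.98 scaled FPKM in every library.

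The later mitochondrial steps are carried by the trifunctional protein (Hadha and Hadhb), Hadh and the thiolase Acaa2. Hadha was at 18.98 and 17.1 scaled FPKM with PM, at 16.9, 36.9 and 32.2 in the libraries labelled RageHepKO, at 34.3, 31.4 and 34.97 in HiAD, at 28.9, 30.5 and 49.1 in FFD and at 32.1, 21.2 and 38.5 in chow livers. Both HiAD + PM libraries were below the HiAD libraries, at -0.86 ± 0.34 (SE), which did not pass (adjusted p = 0.167 in limma). Hadhb, the other subunit, which starts on the opposite strand beside Hadha on chromosome 5, was at 7.33 and 7.69 with PM and at 18.7, 15.1 and 23.2 in HiAD livers. It passed at -1.21 ± 0.33 (SE), adjusted p = 0.047 in limma, a call that 13 of 29 alternatives ended, among them the loss of any one HiAD or HiAD + PM library, and 14.8% of its 100-base transcript windows occur in other genes. Hadh and Acaa2 did not pass with PM, at -0.66 and -0.20.

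Unsaturated chains need isomerases and reductases besides, and of these 5 genes 1 passed with PM. Decr2, the peroxisomal 2,4-dienoyl-CoA reductase, was at 64.2 and 52.3 scaled FPKM with PM, against 131, 117 and 197 in HiAD livers, with a log2 fold change of -1.30 ± 0.33 (SE), adjusted p = 0.0335 in limma, lost without R18, R19, HiAD B1 or B3, with no filter and on FPKM as deposited. Its mitochondrial counterpart Decr1 and the isomerases Eci1, Eci2 and Ech1 had changes of -0.60, -0.47, -0.70 and -0.97, and did not pass. Eci1, a mitochondrial enoyl-CoA isomerase, was at 14.99, 20.3 and 16.9 scaled FPKM in the libraries labelled RageHepKO, against 8.44, 7.31 and 7.70 in HiAD livers. In HiAD + PM it was at 5.92 and 4.88, in FFD at 8.75, 10.1 and 15.9 and in chow livers at 17.5, 8.80 and 18.6. The 3 libraries labelled RageHepKO lay above the HiAD libraries, on both sides of chow R1 and R3, at 1.05 ± 0.27 (SE), adjusted p = 0.0111 in limma. On FPKM as deposited this call was lost (adjusted p = 0.0979 in limma).

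The peroxisomal branch had 0 of 6 members past the test in each of the 5 comparisons in limma (with PM, 3 were lower and 0 higher at an unadjusted p under 0.05). This count rests on chow R2: without it Ehhadh, Hsd17b4 and Pex11a were lower with PM, and in the libraries labelled RageHepKO Acaa1b and Acaa1a were higher and Ehhadh lower. Ehhadh, the bifunctional enzyme and a classical PPAR alpha target of the mouse liver, was at 183 and 144 scaled FPKM with PM, at 86.1, 1232 and 644 in the libraries labelled RageHepKO, at 2431, 1366 and 2607 in HiAD, at 651, 874 and 1615 in FFD and at 974, 133 and 829.7 in chow livers. Every HiAD library exceeded both HiAD + PM libraries and all 3 libraries labelled RageHepKO, but RA19 at 86.1 and chow R2 at 133 were far from the other libraries of their groups. With PM the log2 fold change was -3.65 ± 1.01 (SE), adjusted p = 0.0508 in limma, and without chow R2 it passed (adjusted p = 0.0214 in limma). Acaa1b, a thiolase, was at 387 and 354 with PM, at 943, 1261 and 2074 in the libraries labelled RageHepKO, at 951, 667 and 526 in HiAD, at 1103, 838 and 1581 in FFD and at 788, 59.1 and 928 in chow livers. Its value of 59.1 in chow R2 was the lowest of 14, and 19.3% of its 100-base windows are shared with Acaa1a, so that its reads may be split between these copies. Pex11a, which promotes peroxisome division, had a change of -1.88 with PM (adjusted p = 0.073 in limma, and 0.00866 without chow R2), Hsd17b4 -0.84, Acaa1a -0.38 and Acox2 0.35.

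Acyl-CoA thioesterases had some of the widest differences. Of 6 genes 4 were lower with PM, with a median log2 fold change of -2.75 over the 6, and each of the 6 lay below the HiAD libraries in both HiAD + PM libraries. Acot2, Acot1, Acot4 and Acot3 follow one another on chromosome 12, from base 83987861 to base 84060402. Acot2, the mitochondrial member, was at 4.64 and 2.86 scaled FPKM with PM, at 10.8, 19.5 and 10.9 in the libraries labelled RageHepKO, at 73.4, 62.8 and 117 in HiAD, at 12.5, 7.23 and 60.1 in FFD and at 21.8, 2.10 and 19.5 in chow livers. The HiAD libraries were the 3 highest, with FFD R32 next to them. Against HiAD the change was -4.14 ± 0.86 (SE), adjusted p = 0.0143 with PM and -2.54 ± 0.77 (SE), adjusted p = 0.0251 in the libraries labelled RageHepKO, both in limma. The call with PM was lost without R18, R19 or HiAD B3, and that in the libraries labelled RageHepKO without RA19, RA21, HiAD B1 or B3, with no filter and with sample weights. Against chow it was 2.86 ± 0.77 (SE) in HiAD livers and did not pass (adjusted p = 0.0558 in limma), with 1.93 ± 0.65 (SE), adjusted p = 0.0922 without chow R2.

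Acot3, a peroxisomal thioesterase, was at 0.871 and 1.01 scaled FPKM with PM, at 26.6, 50.2 and 36.2 in the libraries labelled RageHepKO, at 88.998, 24.9 and 80.8 in HiAD, at 31.1, 10.8 and 84.4 in FFD and at 7.75, 0.676 and 12.8 in chow livers. The HiAD + PM libraries were near 1 scaled FPKM, with chow R2 lower still, while HiAD B2 was well below B1 and B3. The log2 fold change was -4.89 ± 0.90 (SE), adjusted p = 0.0074 with PM against HiAD and 3.29 ± 0.80 (SE), adjusted p = 0.0377 in HiAD against chow livers, both in limma. The call with PM was lost without R18 or R19. The call against chow was lost without chow R2 (2.39 ± 0.71 (SE), adjusted p = 0.0662 in limma), and also without chow R1, HiAD B1 or B3, R18, R19 or FFD R28, with no filter, with a pseudocount of 0.1, with the 2 groups alone and in the fit without the libraries labelled RageHepKO. Acot1, the cytosolic member, was at 11.9 and 7.71 with PM, at 6.16, 70.4 and 51.99 in the libraries labelled RageHepKO, at 158, 77.4 and 109.9 in HiAD, at 48.02, 43.02 and 169 in FFD and at 61.9, 3.92 and 59.8 in chow livers. RA19 and chow R2 were below both HiAD + PM libraries, and its change with PM was -3.39 ± 1.12 (SE) (adjusted p = 0.106 in limma), and it passed without chow R2 (adjusted p = 0.0303 in limma).

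Acot4, also peroxisomal, was at 8.11 and 7.44 scaled FPKM with PM, at 24.1, 26.1 and 20.3 in the libraries labelled RageHepKO, at 41.8, 23.3 and 50.2 in HiAD, at 25.3, 19.6 and 49.7 in FFD and at 16.5, 6.40 and 18.7 in chow livers. The HiAD + PM libraries were below every other library except chow R2, with a change of -2.10 ± 0.45 (SE), adjusted p = 0.0164 in limma, lost without R18, R19, HiAD B1 or B3 and with no filter. Acot12, which acts on acetyl-CoA in the cytosol and lies on chromosome 13, was at 12.5 and 12.9 with PM, at 22.5, 28.9 and 22.5 in the libraries labelled RageHepKO, at 29.2, 29.9 and 36.1 in HiAD, at 21.98, 19.3 and 22.1 in FFD and at 23.7, 21.8 and 17.3 in chow livers. Its groups were narrow, with the HiAD libraries the 3 highest and the HiAD + PM libraries the 2 lowest, at -1.25 ± 0.19 (SE), adjusted p = 0.0027 in limma, and no alternative ended the call. Acot8 did not pass, at -0.56. Of the 100-base transcript windows 17.1% are shared between Acot2 and Acot1 as counted on Acot2, and 20.6% of the exon bases of Acot3 lie under other annotated genes, so that the split of reads within the cluster is uncertain.

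**Figure D4:**
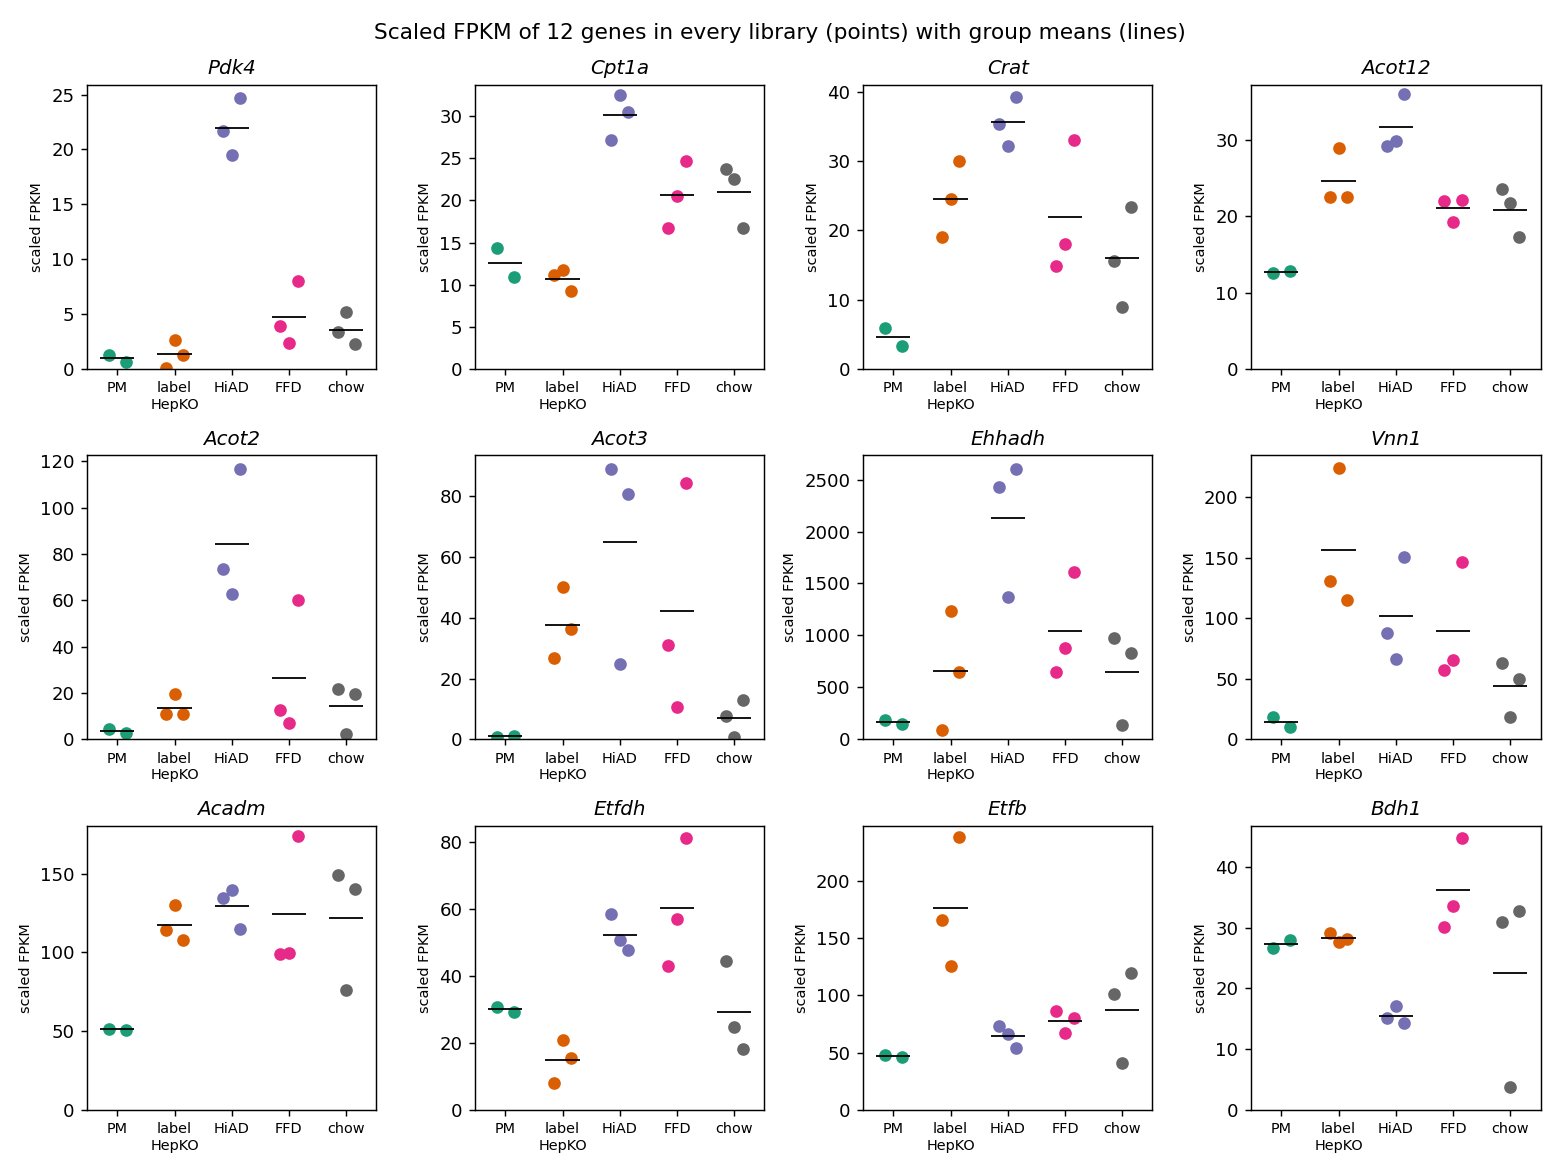
Points are the scaled FPKM of 12 members in every library and lines are group means, for HiAD + PM, the libraries labelled RageHepKO, HiAD, FFD and chow from left to right, with axes from 0. In the Pdk4 panel the 3 HiAD libraries sit between 19.5 and 24.7, above the 11 others, and in the Bdh1 panel chow R2 sits alone at 3.82.

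The electron transfer genes went in different directions in the libraries labelled RageHepKO. Etfa, a subunit of the electron transfer flavoprotein, was at 8.56, 6.94 and 5.14 scaled FPKM there, against 2.30, 2.17 and 1.49 in HiAD livers, with 2.19 and 2.41 in HiAD + PM, 2.59, 2.68 and 2.94 in FFD and 3.06, 1.36 and 2.81 in chow livers. Etfb, the other subunit, was at 166, 126 and 238 in the libraries labelled RageHepKO, against 73.7, 66.5 and 53.9 in HiAD livers, with 48.2 and 45.9 in HiAD + PM, 86.3, 67.6 and 80.4 in FFD and 100.951, 40.7 and 119.8 in chow livers. For both subunits the 3 libraries labelled RageHepKO were the highest of the 14. The changes were 1.39 ± 0.23 (SE), adjusted p = 0.00128 for Etfa and 1.40 ± 0.35 (SE), adjusted p = 0.0101 for Etfb in limma, and the call of Etfb was lost on FPKM as deposited (adjusted p = 0.0685 in limma). Exons of Etfb lie under those of Gm45233 on the same strand over 58.2% of their bases, so that its level is uncertain.

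Etfdh, the membrane enzyme that takes electrons from this flavoprotein to ubiquinone, went the other way. It was at 8.15, 20.99 and 15.5 scaled FPKM in the libraries labelled RageHepKO, against 58.6, 50.8 and 47.7 in HiAD livers, with 30.9 and 29.3 in HiAD + PM, 43.1, 57.1 and 81.2 in FFD and 44.5, 24.7 and 18.3 in chow livers. The libraries labelled RageHepKO lay below all HiAD and FFD libraries and overlapped with chow R3, at -1.83 ± 0.36 (SE), adjusted p = 0.00288 in limma. With PM the changes of Etfa, Etfb and Etfdh were 0.15, -0.44 and -0.78, and none of these 3 passed.

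Bdh1, which interconverts the ketone bodies acetoacetate and 3-hydroxybutyrate, had a pattern of its own. It was at 26.7 and 28.04 scaled FPKM with PM, at 29.1, 27.7 and 28.1 in the libraries labelled RageHepKO, at 15.1, 17.1 and 14.3 in HiAD, at 30.05, 33.6 and 44.7 in FFD and at 30.9, 3.82 and 32.8 in chow livers. The HiAD libraries were below all others apart from chow R2. No comparison passed with all libraries, and the change with PM was 0.79 ± 0.61 (SE) (adjusted p = 0.534 in limma). Without chow R2 the spread was far smaller and Bdh1 passed in limma in 4 comparisons: against HiAD it was higher with PM (0.79 ± 0.18 (SE), adjusted p = 0.022) and in the libraries labelled RageHepKO (0.83 ± 0.17 (SE), adjusted p = 0.00275), and in HiAD livers it was lower than in FFD (-1.16 ± 0.17 (SE), adjusted p = 0.00227) and chow livers (-0.997 ± 0.18 (SE), adjusted p = 0.00878).

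Pdk4, the kinase that switches off pyruvate dehydrogenase and so spares glucose when fat is burned, separated HiAD livers from the rest (chromosome 6, bases 5483351 to 5496309). It was at 1.24 and 0.642 scaled FPKM with PM, at 0.0908, 2.61 and 1.27 in the libraries labelled RageHepKO, at 21.7, 19.5 and 24.7 in HiAD, at 3.94, 2.31 and 8.001 in FFD and at 3.31, 5.21 and 2.22 in chow livers. The lowest HiAD library was above the highest of the other 11, FFD R32. Means were 0.939 ± 0.42 with PM (SD, n = 2), 1.32 ± 1.26 in the libraries labelled RageHepKO, 21.9 ± 2.60 in HiAD, 4.75 ± 2.93 in FFD and 3.58 ± 1.51 in chow livers (SD, n = 3 each). The log2 fold change against HiAD was -3.58 ± 0.48 (SE), adjusted p = 0.00101 with PM and -3.46 ± 0.43 (SE), adjusted p = 0.000351 in the libraries labelled RageHepKO, both in limma, and no alternative ended these calls. HiAD livers were higher than FFD livers by 2.11 ± 0.43 (SE), adjusted p = 0.0189, a call lost without any one of HiAD B1, HiAD B3, FFD R28 and FFD R31, with no filter and with a pseudocount of 0.1, and higher than chow livers by 2.37 ± 0.43 (SE), adjusted p = 0.00832, a call lost with a pseudocount of 0.1 (limma).

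Vnn1, the pantetheinase that recycles vitamin B5 from pantetheine, was at 18.6 and 10.2 scaled FPKM with PM, at 131, 224 and 115 in the libraries labelled RageHepKO, at 87.5, 66.2 and 151 in HiAD, at 57.6, 65.1 and 147 in FFD and at 63.2, 18.3 and 50.05 in chow livers. The HiAD + PM libraries lay below every library except chow R2, which was between them. With PM the change was -2.71 ± 0.56 (SE), adjusted p = 0.0129 in limma, lost without R18, R19 or HiAD B3. In the libraries labelled RageHepKO the change was 0.64 ± 0.50 (SE) and did not pass.

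The receptor itself was not among the genes that passed with PM. Ppara was at 9.04 and 8.53 scaled FPKM with PM, at 4.27, 3.15 and 2.52 in the libraries labelled RageHepKO, at 6.74, 7.95 and 9.31 in HiAD, at 6.45, 5.50 and 8.40 in FFD and at 5.16, 2.83 and 3.09 in chow livers. The HiAD + PM values lay within the HiAD range, with a log2 fold change of 0.13 ± 0.25 (SE) and a 95% interval of -0.42 to 0.68. In the libraries labelled RageHepKO it was lower than in HiAD livers (-1.07 ± 0.23 (SE), adjusted p = 0.00428 in limma), and in HiAD livers it was higher than in chow livers (0.96 ± 0.23 (SE), adjusted p = 0.0311 in limma), a call lost without chow R2 (0.83 ± 0.24 (SE), adjusted p = 0.06 in limma). Of 10 tested PPAR receptors and partners, 0 passed with PM (1 lower at an unadjusted p under 0.05 in limma, and 1 lower without chow R2). In the libraries labelled RageHepKO 1 of the 10 was higher, Esrra, and 5 were lower, Ppara, its partner Rxra (-0.92), Med1, Ncoa2 and the coactivator Ppargc1a (-2.01).

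Other PPAR alpha target genes, outside the 39, included genes with wide differences with PM. Of 26 tested, 11 were lower and 0 higher with PM (0 also at an unadjusted p under 0.05 in limma), with a median log2 fold change of -1.23, and 3 of the 26 were above 0. Cyp4a10, a fatty acid omega-hydroxylase, was at 42.1 and 44.3 scaled FPKM with PM, against 1278, 1025 and 1684 in HiAD livers (-4.88 ± 0.41 (SE), adjusted p = 5.67e-05 in limma). The lowest of the other 12 libraries was FFD R31 at 489.8, so that both HiAD + PM libraries were far below every other library. Cyp4a14, of the same family, was at 64.4 and 48.2 with PM, against 4397, 3505 and 5654 in HiAD livers, and the fatty acid transporter Cd36 at 1.91 and 2.65, against 71.96, 59.9 and 89.5. Their changes were -6.29 ± 0.78 (SE), adjusted p = 0.000626 for Cyp4a14 and -4.50 ± 0.55 (SE), adjusted p = 0.000612 for Cd36 in limma. In the libraries labelled RageHepKO 8 of the 26 were lower and 0 higher (1 higher at an unadjusted p under 0.05 in limma), in HiAD livers 3 were higher than in FFD livers and 5 higher than in chow livers, and 0 were lower in either (0 and 1 at an unadjusted p under 0.05 in limma). Without chow R2, 13 were lower with PM, 2 were higher and 10 lower in the libraries labelled RageHepKO, and in HiAD livers 5 were higher than in FFD livers, while 3 were higher and 1 lower than in chow livers.

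**Figure D5:**
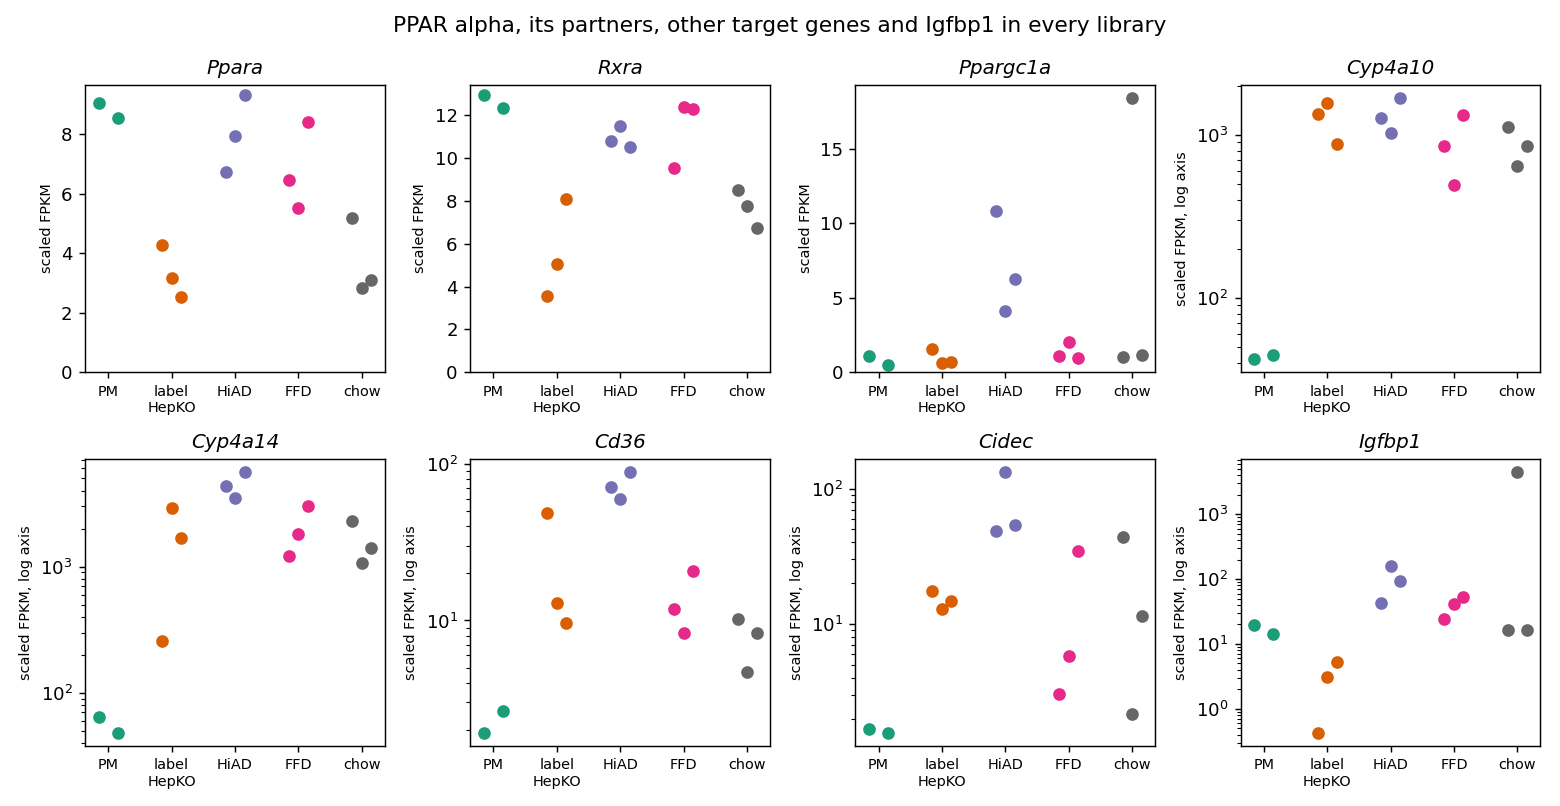
Points are the scaled FPKM of 8 genes outside the 39 in every library, for HiAD + PM, the libraries labelled RageHepKO, HiAD, FFD and chow from left to right, on axes from 0 for Ppara, Rxra and Ppargc1a and on log axes for the others. Cyp4a10 is at 42.1 and 44.3 in the HiAD + PM libraries and at 489.8 or above elsewhere, Ppara with PM lies within the HiAD range, and Igfbp1 is at 4537 in chow R2 alone.

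Fatty acid oxidation genes outside the 39 went both ways with PM. Of 34 tested, 5 were higher and 3 lower, with a median of -0.05. Nudt7, a peroxisomal hydrolase of coenzyme A, was at 131 and 158 scaled FPKM with PM, against 7.999, 12.7 and 11.3 in HiAD livers (3.65 ± 0.48 (SE), adjusted p = 0.000968 in limma). Acadsb, the dehydrogenase of short branched chains, was higher too (1.03 ± 0.20 (SE), adjusted p = 0.00878 in limma). Abcd2, a peroxisomal importer of fatty acids, was at 0.383 and 0.466 with PM, against 12.4, 8.62 and 16.1 in HiAD livers (-3.19 ± 0.28 (SE), adjusted p = 6.16e-05 in limma), and the carnitine transporter Slc22a5 was lower (-1.86 ± 0.33 (SE), adjusted p = 0.00564 in limma). Of 18 peroxisome biogenesis genes 1 was higher with PM, Pex6, and 0 were lower (1 at an unadjusted p under 0.05 in limma). Of 11 genes of fatty acid synthesis 3 were higher, Acly, Fasn (1.62 ± 0.31 (SE), adjusted p = 0.00952 in limma) and Mlxipl, with a median of 1.15.

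Beside the lower members with PM, the summed level of 9 cholangiocyte markers was 19.8 to 29.4 scaled FPKM with PM, against 92.9 to 148 in HiAD livers, and that of 8 Kupffer cell markers was 153 to 184, against 53.1 to 67.0. The 11 hepatocyte markers summed to 20753 to 22016 with PM, against 27620.1 to 30479 in HiAD livers, and 0 of the 11 passed the test (1 lower at an unadjusted p under 0.05 in limma). The 12 stellate cell markers summed to 40.8 to 45.7 with PM, against 69.5 to 95.6 in HiAD livers, and adipocyte markers to at most 0.105 with PM, against 0 in HiAD livers. The 10 endothelial markers summed to 23.4 to 29.1 with PM, against 37.1 to 45.8 in HiAD livers, and the 7 neutrophil markers to 0.629 to 1.29, against 4.11 to 15.1, with Ly6g and Mpo at 0 with PM. Single markers were mixed: of 5 tested cholangiocyte markers 3 were lower with PM, Spp1, Epcam and Slc5a1, and Onecut1 was higher (limma). Of 11 stellate cell markers 2 were lower, and of 8 endothelial markers 1, with 0 higher (1 and 0 at an unadjusted p under 0.05 in limma). Kupffer cell markers had 2 of 8 higher and 0 lower, and 0 of 4 neutrophil markers passed. Of 12 genes raised by fasting 2 were lower with PM, Cpt1a and Cdkn1a, and 0 higher (0 also at an unadjusted p under 0.05 in limma), with a median of -1.01, and of 14 clock genes 1 was higher, Bhlhe41, and 0 lower (1 at an unadjusted p under 0.05 in limma). The part of these differences, and of that in the sex-biased genes, in the members' changes was not tested.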

How the data were processed

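Bulk RNA-seq libraries of 14 mouse livers in 5 groups were mapped to groups by the sample names. The authors aligned reads to GRCm38 with GENCODE annotations and Dropseq tools and describe a UMI-filtered count matrix, and how strand was treated in counting was not stated. The name of the deposited table speaks of raw counts, but its values are not whole numbers and, multiplied by exon length in kilobases, sum to 901152 to 993429 per library, so the deposited values were analysed as FPKM. This unit was inferred, and log2 values were therefore tested with limma and no count model was used.

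From 55583 entries, 27 with a date for a name and 129 exact duplicates were dropped. Scaling between libraries used factors from trimmed means of log ratios, and values were divided by these factors (0.695 to 1.15). The means left out 30% of genes at each end, of 6522 genes at 1 FPKM or more in every library. Tests were run for genes that reached 1 scaled FPKM in 2 or more libraries, on log2(scaled FPKM + 1), so that fold changes of low genes are understated. One limma fit of 5 group means (trend, robust) gave the 5 contrasts, with Benjamini-Hochberg adjustment over 12110 genes and a threshold of 0.05. Without counts the depth is unknown, so precision rests on the spread between mice, and no source says that the mice were independent beyond being separate samples. The code was tested on simulated data. Alternatives were other filters, pseudocounts, scalings, thresholds, sample weights, fits of fewer groups and each library left out.

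The 39 members and the other gene lists were chosen with earlier results of these data known. Values were given for Cpt1a, Cpt2, Acadm, Acadl, Hadha, Ehhadh, Acaa1b, Acot1, Acot2, Acot3, Acot4, Bdh1, Pdk4, Vnn1 and Acsl1, and in each contrast for up to 8 members in a direction with the smallest p among those that passed without overlap. Up to 4 genes of another list with the smallest p were named, and Ppara always. Other members named in counts of 5 or fewer, the other called members, and Ppargc1a, Cidec, Igfbp1, Dbp, G0s2, Lpl and Plin5 were chosen after their values were seen. The list of mitochondrial content genes is not reported here. Gene positions, exon overlaps and shared 100-base transcript windows came from GENCODE on GRCm38. Python 3.11.15, numpy 2.4.6, pandas 2.3.3, matplotlib 3.10.9, R 4.3.3, limma 3.58.1 and the R package data.table (1.17.8) were used.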

Additional observations from a re-analysis of the deposited data

How the results depend on the processing

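None of the 23 member calls turned its direction under the alternatives run. Alternatives that change only the filter, the threshold or the libraries outside a comparison could not turn a direction, since they leave the fold change as it is. Of the 195 member values over 5 comparisons, 57 changed sign under at least 1 alternative, 24 of them in FFD against chow and 1, Acad10, with PM. Without chow R2, 15 changed sign in FFD against chow and 9 in HiAD against chow, among them Acaa1b (0.98 with all libraries, -0.30 without) and Acadl (0.13, and -0.22 without). For HiAD + PM against HiAD, the 12 lower members were 7 with no filter, 8 on FPKM as deposited, 24 with sample weights, 23 with the 2 groups alone, 5 at an adjusted p under 0.01 and 22 at an unadjusted p under 0.05, and the 0 higher members were 1 with the 2 groups alone. Calls over all tested genes moved too: the 380 lower genes became 1534 under sample weights and 684 of 10516 when only these 2 groups were fitted. In that fit of 2 groups the 401 higher genes became 783. Skipping the filter gave 270 lower genes of 27549, and unscaled FPKM gave 323 of 12081. The stricter threshold of 0.01 left 123 lower genes, while 1188 had an unadjusted p under 0.05 in limma. With single libraries left out the lower members numbered at most 17, and the higher ones ranged from 0 to 1. The fewest lower members came where leaving out R18 or R19 left 1 library with PM. For the libraries labelled RageHepKO, the 3 higher members were 1 on FPKM as deposited and 1 at an adjusted p under 0.01, and the 5 lower ones were 9 on FPKM as deposited and 8 at an unadjusted p under 0.05. Over tested genes the 1900 higher were 952 on FPKM as deposited and 870 at an adjusted p under 0.01. The 2144 lower genes were 3371 on FPKM as deposited and 2813 at an unadjusted p under 0.05. Left-out libraries gave 3 to 8 higher and 4 to 8 lower members. For HiAD against FFD, the 1 higher member became 0 with no filter, with a pseudocount of 0.1 and at an adjusted p under 0.01, 2 with sample weights and 5 at an unadjusted p under 0.05, and the 0 lower became 1 with sample weights and 1 with the 2 groups alone. Over tested genes the 201 higher were 164 with no filter, 150 with a pseudocount of 0.1 and 63 at an adjusted p under 0.01. They were 631 with sample weights and 1057 at an unadjusted p under 0.05. The 175 lower genes were 508 with sample weights and 293 with the 2 groups alone (of 10581). Left-out libraries gave 0 to 1 higher and 0 to 1 lower members. For HiAD against chow, the 2 higher members were 1 with no filter, 0 with a pseudocount of 0.1, 4 on FPKM as deposited, 4 with sample weights, 1 with the 2 groups alone, 1 without the libraries labelled RageHepKO, 1 at an adjusted p under 0.01 and 11 at an unadjusted p under 0.05. The 0 lower were 1 with sample weights and 1 at an unadjusted p under 0.05. Left-out libraries gave 1 to 4 higher and 0 to 2 lower. Over tested genes the 340 higher were 281 with no filter, 267 with a pseudocount of 0.1 and 519 on FPKM as deposited. They were 1269 with sample weights, 128 with the 2 groups alone (of 10820) and 511 without the libraries labelled RageHepKO. They were 104 at an adjusted p under 0.01 and 1308 at an unadjusted p under 0.05. The 220 lower genes were 1111 with sample weights and 1114 at an unadjusted p under 0.05. For FFD against chow, 5 were higher at an unadjusted p under 0.05, against 578 of 12110 tested genes, and left-out libraries gave 0 to 0. The cause of these moves was not tested.

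Whether the replicate numbers shared by chow and HiAD libraries pair mice is not stated. Deviations of same-numbered libraries correlated at 0.04, -0.09 and -0.05, against -0.14 to 0.14 for differently numbered ones. With 3 libraries a group these values cannot settle it. With the replicate number as a block, chow and HiAD alone gave 2 higher and 0 lower members, against 1 higher and 0 lower with no replicate block. Over tested genes the block gave 39 higher and 46 lower, against 128 and 110 without it.

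The precision rests on 2 or 3 libraries a group and on an unknown depth. The unit was inferred, and the doubt about Ager covers the HiAD libraries as well as those labelled RageHepKO. Chow R2 widened the shared error of every comparison, since without it 17 members were lower and 1 higher with PM. Over tested genes 493 were lower and 524 higher in that fit, against 380 and 401 with all libraries. Genes that share transcript sequence or exons with others, among them Acot1, Acot2, Acaa1b, Hadhb, Etfb and Acadvl, have uncertain levels.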

Other observations

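Among chow livers, R2 also stood apart in genes outside the 39. Dbp, a clock output gene, was at 48.3, 0.809 and 46.8 scaled FPKM in chow R1, R2 and R3, and G0s2, an inhibitor of fat breakdown, was at 317, 3.11 and 173. Ppargc1a, the coactivator of PPAR alpha, was at 1.01, 18.4 and 1.18, and no other library of the 14 exceeded 10.8. Lpin1, a fasting gene, was at 14.7, 66.3 and 11.99 in the same libraries, and the counts of fasting and clock genes in the other comparisons stand beside the members above.

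Cidec, a lipid droplet gene, was at 1.67 and 1.57 scaled FPKM with PM, against 48.2, 133 and 53.9 in HiAD livers, and also ranged widely among chow livers, at 44.02, 2.16 and 11.5. Lpl, lipoprotein lipase, was at 10.8 and 9.53 with PM, at 11.6, 11.8 and 10.8 in the libraries labelled RageHepKO, at 33.9, 22.98 and 114 in HiAD, at 6.92, 7.47 and 6.58 in FFD and at 1.40, 0.863 and 2.42 in chow livers. The 3 HiAD libraries were the highest of the 14 for Lpl and the 3 chow libraries the lowest, and HiAD livers were higher than FFD livers (2.52 ± 0.43 (SE), adjusted p = 0.00722 in limma) and chow livers (4.20 ± 0.43 (SE), adjusted p = 0.000211 in limma). Plin5, which tethers lipid droplets to mitochondria, was at 92.5, 93.2 and 91.1 in HiAD livers, above the 11 others, and was lower with PM at 30.8 and 16.6 (-1.98 ± 0.42 (SE), adjusted p = 0.0148 in limma).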
